A study of Mus musculus with 6 samples.

Results

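Caspases are proteases that cut their targets after aspartate, and they fall into classes with different outcomes. The inflammatory caspases encoded in the mouse by Casp1, Casp4 and Casp12 belong to innate defence, whereas Casp8 starts and Casp6 helps to carry out apoptosis. In an inflammasome, a sensor such as NLRP3 gathers the adaptor ASC (gene Pycard) and caspase-1, which then matures interleukin-1 beta and interleukin-18 and cuts gasdermin D (gene Gsdmd), the protein that opens pores in the cell membrane. These 8 genes were followed in cells of the mouse olfactory epithelium sorted by ICAM1. All probe sets whose platform symbol was one of the 8 were taken, which gave 12 probe sets out of 45037 and 8 genes out of 18193.

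Olfactory epithelium was taken from CD1 mice, dissociated, and separated in a cell sorter by staining for ICAM1 (CD54), an adhesion protein of horizontal basal cells, the reserve stem cells of this epithelium, and of many leukocytes and endothelial cells. Each of 3 litters, aged 21, 22 and 24 postnatal days, gave 1 ICAM1-positive and 1 ICAM1-negative sort, so there were 3 arrays per group. No array of undissociated tissue was used here, and a sort is a mixture of the cells of a whole litter that did or did not carry the antigen. Age and litter cannot be told apart. RNA was amplified in 2 rounds before it was hybridised to an Affymetrix mouse genome array.

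Values are scaled linear intensities without detection calls, with an array median between 87.7 and 102.4 over all probe sets, and an intensity below that median is treated here as near background. Intensities of different probe sets are not read as relative RNA levels. They serve to pick the brightest probe set of a gene and, summed over markers, to compare the sorts. In such sums the brightest probe sets weigh most. Icam1 itself, the antigen of the sort, averaged 6974 ± 237 in ICAM1-positive and 20.8 ± 10.9 in ICAM1-negative cells (SD, n = 3 each), as the titles of the samples have it, whereas the free-text descriptions name the populations the other way round. Across probe sets, log2 intensities of arrays within a sort correlated at 0.934 to 0.944, and those of arrays from different sorts at 0.762 to 0.794. All 7 horizontal basal cell markers rose in the ICAM1-positive sort, and all 7 mature and all 8 immature olfactory neuron markers fell. The sort differed over a large part of the array: 34.9% of 38694 probe sets passed the limma test at an adjusted p below 0.05, 16.9% higher and 18% lower in ICAM1-positive cells.

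The 8 genes were chosen with this contrast already known, so their differences between the sorts are described without a test. In bulk samples such as these, fewer cells of a type and less RNA per cell cannot be told apart. Of the 12 probe sets, 10 separated the sorts: 8 had all ICAM1-positive arrays above all ICAM1-negative arrays, 2 had them all below and 2 overlapped. Over all 45037 probe sets, 44.9% separated the sorts, 21.3% above and 23.5% below, and nothing is read from the members' count, since the contrast was used to choose them. The filter on low values (3 or more of the 6 arrays with an intensity over 16) kept 10 of the 12 probe sets and 7 of the 8 genes. Casp4 lay just inside it with 3 arrays above 16, and the brighter Casp12 probe set just outside it with 2.

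Casp1, Casp4 and Casp12 lie next to each other in this order on chromosome 9, with no other annotated gene between them in assembly GRCm38.p6. The 250 bases before their start sites are shown because the neighbouring genes differed in signal, with the bases in capitals marking matches to motifs searched on both strands. The motifs were the degenerate NF-kB consensus, the interferon regulatory factor core AANNGAAA and the STAT element TTCNNNGAA, where N is any base. The sequences are from RefSeq, build GRCm38.p6, plus strand, and Casp4 is given for the first of its 2 listed starts.
Casp1, chr9:5298267-5298516: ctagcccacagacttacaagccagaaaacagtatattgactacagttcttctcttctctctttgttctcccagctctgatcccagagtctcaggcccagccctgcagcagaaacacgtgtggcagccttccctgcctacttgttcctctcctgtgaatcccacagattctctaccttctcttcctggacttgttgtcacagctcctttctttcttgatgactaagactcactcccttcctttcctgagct
Casp4, chr9:5308599-5308848: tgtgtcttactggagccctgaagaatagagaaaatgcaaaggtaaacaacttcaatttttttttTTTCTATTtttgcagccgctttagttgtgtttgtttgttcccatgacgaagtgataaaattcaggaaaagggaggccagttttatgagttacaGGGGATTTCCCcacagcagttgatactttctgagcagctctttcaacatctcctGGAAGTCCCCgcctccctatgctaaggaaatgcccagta
Casp12, chr9:5345226-5345475: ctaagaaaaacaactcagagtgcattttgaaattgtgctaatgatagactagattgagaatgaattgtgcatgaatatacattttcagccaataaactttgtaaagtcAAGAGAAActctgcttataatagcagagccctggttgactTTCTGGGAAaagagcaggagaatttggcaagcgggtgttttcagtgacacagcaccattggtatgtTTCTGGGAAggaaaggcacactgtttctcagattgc
The Casp4 window held NF-kB matches in 2 stretches, beginning 93 and 39 bases before the start; the first stretch holds 3 matches that overlap each other, 1 of them on the opposite strand. It also held 1 interferon regulatory factor match. The Casp12 window held 2 STAT matches and 1 interferon regulatory factor match, and the Casp1 window held none of the 3 motifs. Of 32851 promoters of this length, 7.25% held the NF-kB consensus, 21.3% the interferon regulatory factor core and 7.02% the STAT letters. Promoters were listed for 7 of the 8 genes: those of Casp8, Pycard and Nlrp3 held the interferon regulatory factor core, the second listed Nlrp3 start also the NF-kB consensus, and that of Casp6 no match. A match is a description of the letters and not a binding site.

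Casp4, called caspase-11 in much of the mouse literature, encodes the protease that binds bacterial lipopolysaccharide in the cytosol. Its intensity (probe set 1449591_at) was 471.1, 370.1 and 500.4 in ICAM1-positive cells of litters 1 to 3, against 2.4, 1.3 and 1.5 in ICAM1-negative cells. Every ICAM1-positive array lay above its array median and every ICAM1-negative array lay at the bottom of the scale. The log2 difference, ICAM1-positive minus ICAM1-negative, was 8.05 ± 0.29 (SE of the limma fit), and 7.62, 8.15 and 8.38 within litters 1, 2 and 3. Because intensities as low as those of the ICAM1-negative sort have no reliable ratio, the dim side was also raised to the array median, which gives a Casp4 level at least 4.61-fold higher in ICAM1-positive cells.

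Casp1 encodes the caspase that matures interleukin-1 beta. Its intensity (probe set 1449265_at) was 104.2, 98.9 and 112 in ICAM1-positive cells, against 16.3, 4.7 and 2.7 in ICAM1-negative cells. The groups did not overlap, but the ICAM1-positive values sat close to the array medians of 101.7, 87.7 and 99.9. The log2 difference was 4.15 ± 0.65, with litter values of 2.68, 4.40 and 5.37. When values under the array median were raised to it, the difference was 0.12, at least 1.09-fold. The Casp1 difference therefore lies almost wholly among intensities near background.

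Casp12 encodes a caspase of the inflammatory class known for its place at the endoplasmic reticulum. Its brighter probe set (1418981_at) read 41.7, 33.1 and 16 in ICAM1-positive cells, against 4.5, 7.8 and 8.9 in ICAM1-negative cells, all below the array medians. The other probe set (1449297_at) read 12.8, 3.2 and 3.1 in ICAM1-positive and 33.9, 1.9 and 2.8 in ICAM1-negative cells, and these overlapped. No level of Casp12 above background was thus measured in either sort, and no fold is given.

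**Figure D1:**
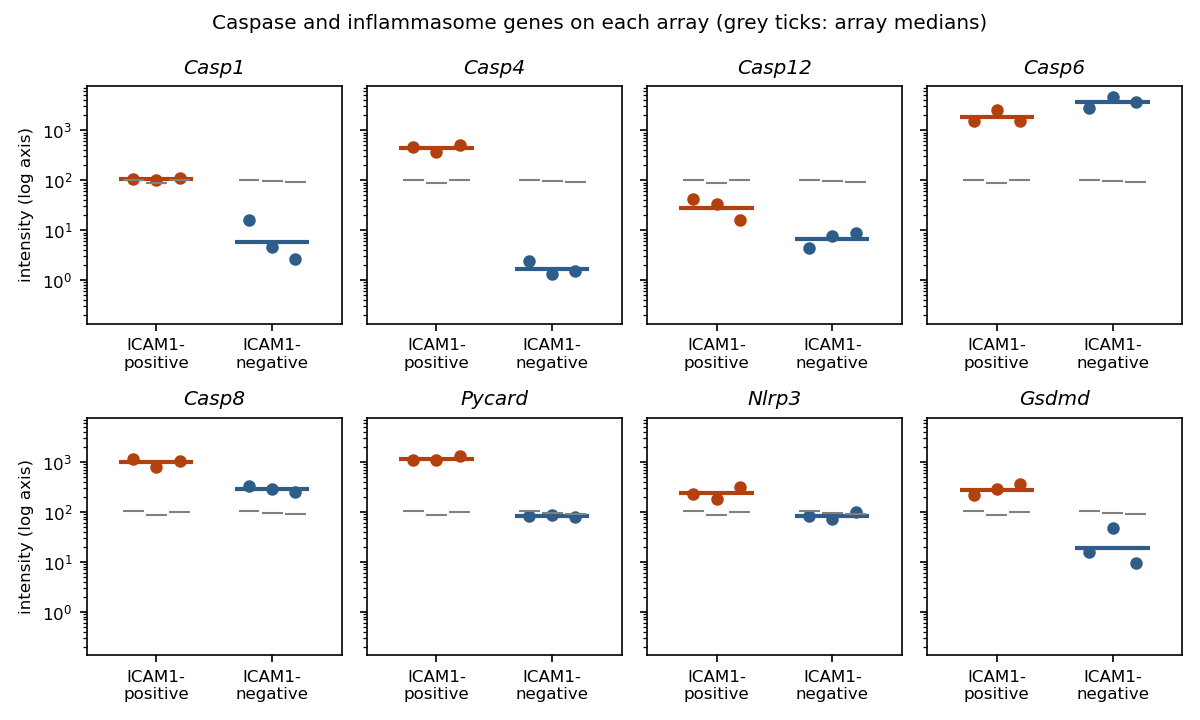
Intensity on each array (log axis) of the brightest probe set of each of the 8 genes, with ICAM1-positive arrays left and ICAM1-negative arrays right of each panel; coloured bars are geometric means of 3 arrays and grey ticks the array medians. Casp4, Gsdmd and Pycard sit above the medians in ICAM1-positive and below them in ICAM1-negative cells. Casp1 sits at the medians in ICAM1-positive cells, and Casp6 is the gene with lower values in ICAM1-positive cells.

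The apoptotic caspases were measured well above background and moved in opposite directions. Casp8, the initiator caspase of death receptors (probe set 1424552_at), read 1132.5, 784.4 and 1018 in ICAM1-positive cells, against 322.5, 285.2 and 243.6 in ICAM1-negative cells. All 3 ICAM1-positive arrays were higher, by a log2 difference of 1.78 ± 0.22 (3.43-fold), with litter values between 1.46 and 2.06. Casp6, an executioner caspase also studied in axon pruning (probe set 1415995_at), read 1555.9, 2496.1 and 1522.2 in ICAM1-positive cells, against 2786, 4673.7 and 3681 in ICAM1-negative cells. Its groups did not overlap either, with a log2 difference of -1.01 ± 0.30 and litter values of -0.84, -0.90 and -1.27. Litter 2 had the highest Casp6 value in both sorts. A second Casp6 probe set (1458715_at) was below the array median on all 6 arrays, at 16.1 to 50.9 in ICAM1-positive and 66.1 to 84 in ICAM1-negative cells. Markers of mature neurons, with summed intensities of 4621 to 9855 in ICAM1-positive and 75107 to 88085 in ICAM1-negative cells, moved in the same direction as Casp6, and their part in its difference was not tested.

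The remaining genes encode the adaptor, a sensor and the pore former of the inflammasome. Pycard, the gene of the adaptor ASC (probe set 1417346_at), read 1084.8, 1085.5 and 1329.8 in ICAM1-positive cells, against 82.1, 85.7 and 77 in ICAM1-negative cells. The ICAM1-negative values were tight and lay just under the array medians. The log2 difference was 3.83 ± 0.17, with litter values of 3.72, 3.66 and 4.11, and the level was at least 12.1-fold higher with the dim side raised. The 2 other Pycard probe sets (1417347_at and 1446926_at) were below the array median on all 6 arrays and give no fold; 1446926_at overlapped between the sorts.

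Nlrp3, the gene of the sensor (probe set 1425412_at), read 230.6, 181.9 and 310.9 in ICAM1-positive cells, against 80.8, 72.6 and 97.9 in ICAM1-negative cells. The groups did not overlap, and the log2 difference was 1.50 ± 0.26, or 1.25 with low intensities raised. Litter values were 1.51, 1.33 and 1.67, the narrowest spread among the 12 probe sets (SD 0.17). Gsdmd, the gene of gasdermin D (probe set 1428767_at), read 215.9, 283.2 and 352.8 in ICAM1-positive cells, against 15.8, 47 and 9.5 in ICAM1-negative cells. Its ICAM1-negative arrays were all below their medians, so beside the log2 difference of 3.86 ± 0.60 the level is given as at least 2.89-fold higher in ICAM1-positive cells. Its litter values ran from 2.59 in litter 2, where the ICAM1-negative array was brightest, to 5.21 in litter 3.

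**Figure D2:**
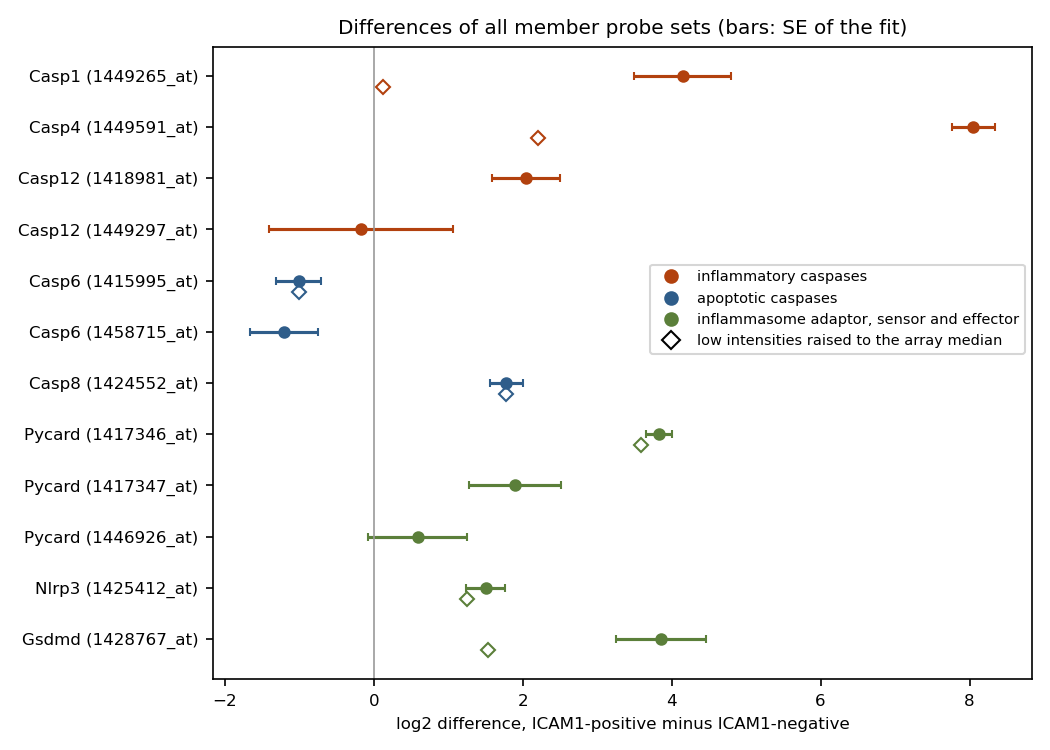
Log2 difference between the sorts (horizontal axis, ICAM1-positive minus ICAM1-negative) for the 12 probe sets, with SE of the fit as bars; open diamonds give the difference after dim values were raised to the array median, and are left out where all 6 arrays were below it. The diamonds leave Casp8, Casp6 and the main Pycard probe set nearly in place, while Casp4 moves to 2.20, Gsdmd to 1.53 and Casp1 to 0.12.

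Macrophages and dendritic cells are textbook sites of inflammasome genes, and the macrophage markers were higher in the same arrays. Of 15 macrophage markers 14 rose in ICAM1-positive cells, against 20.6% of the 16399 genes tested, and their summed intensity was 17357 to 21401 in ICAM1-positive and 1288 to 1748 in ICAM1-negative cells. None of the 15 was below the array median on all 6 arrays. Of 8 dendritic cell markers 4 rose and 1, Zbtb46, fell, with summed intensities of 7013 to 7792 in ICAM1-positive and 6987 to 9643 in ICAM1-negative cells, most of it from Epcam, which epithelial cells share. Horizontal basal cell markers summed to 85664 to 89725 in ICAM1-positive and 286.7 to 740.4 in ICAM1-negative cells. The part of macrophages, dendritic cells and basal cells in the inflammasome and caspase values was not tested. Of 9 neutrophil markers 0 rose and 1 fell, Cxcr2, at intensities below the array median on all arrays. With litter as a paired block 4 of the 9 fell, S100a8, S100a9 and Mmp8 joining Cxcr2 (limma adjusted p = 0.0431, 0.0295, 0.0393 and 0.0202). Summed neutrophil intensity was 1913 to 3535 in ICAM1-positive and 4423 to 8525 in ICAM1-negative cells. Of 7 measured vascular endothelial markers 0 rose and 0 fell, and 6 were below the array median on all 6 arrays. Pecam1 was listed but not measured.

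Inflammatory and apoptotic caspases were then set against each other within each litter. As deposited, the mean log2 difference was 4.75 for Casp1, Casp4 and Casp12 and 0.39 for Casp6 and Casp8, so the inflammatory mean exceeded the apoptotic one by 4.36 ± 0.31 (SD over 3 litters). It did so in every litter, by 4.02, 4.60 and 4.47. The gap was much smaller when dim values were raised to the array median, at 0.39 ± 0.16, with litter values of 0.25, 0.34 and 0.57. That value counts Casp12, below the array median on all 6 arrays, as no difference. With Casp12 left out the raised gap was 0.78 ± 0.19, with litter values of 0.63, 0.72 and 0.99, which rests on Casp1 and Casp4. Casp1 alone had a raised difference of 0.12, below the apoptotic mean by 0.26 (a gap of -0.26). The near-zero apoptotic mean combines the higher Casp8 with the lower Casp6 and describes neither gene.

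**Figure D3:**
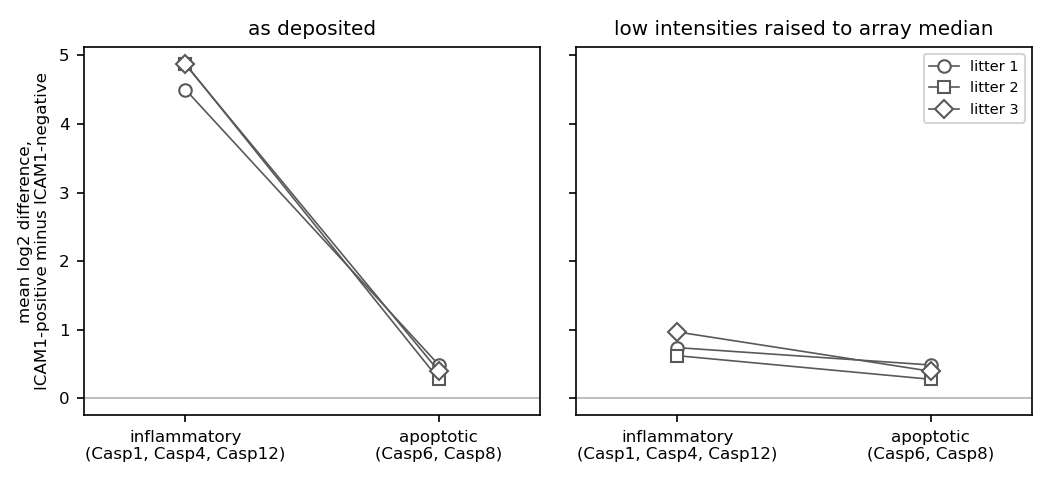
Mean log2 difference between the sorts (vertical axis) for the inflammatory caspases Casp1, Casp4 and Casp12 and the apoptotic caspases Casp6 and Casp8, 1 line per litter. Left, intensities as deposited, where the inflammatory ends of the 3 lines lie at 4.50 to 4.88 and the apoptotic ends at 0.28 to 0.49; right, dim values raised to the array median, where the inflammatory side lies at 0.62 to 0.97 with Casp12 counted as no difference.

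The other caspases on the array gave no call. Casp2, a caspase of the DNA damage response, read 2487, 1891 and 2384.8 in ICAM1-positive cells, against 2095.3, 1376.1 and 1886.9 in ICAM1-negative cells, and the groups overlapped (log2 difference 0.35 ± 0.23, limma adjusted p = 0.308). Casp9, the initiator of the mitochondrial pathway, averaged 697.8 ± 69.5 in ICAM1-positive and 1009 ± 314 in ICAM1-negative cells (-0.49 ± 0.27, limma adjusted p = 0.221). Casp14, a caspase of keratinocyte differentiation, averaged 229.5 ± 111 in ICAM1-positive and 138.5 ± 47.3 in ICAM1-negative cells (limma adjusted p = 0.377), and passed without litter 1 (1.39, adjusted p = 0.0411). With Casp2 and Casp9 added, the apoptotic mean was 0.16 and the gap to the inflammatory mean 4.59 as deposited and 0.62 with dim values raised and Casp12 counted as no difference.

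The further genes of these pathways were taken from lists grouped by function, with 75 measured genes. In ICAM1-positive cells 33 of them rose and 8 fell, and the median over the 75 was 0.75 on the log2 scale. Over all 16399 genes, 41.4% passed, 20.6% higher and 20.8% lower, with a median of -0.06. With dim values raised, 29 of the 75 rose and 10 fell, and the shares over all genes were 21.7% higher and 23.2% lower. With litter as a paired block the shares over all genes were 21.3% and 22.2%. Of the 75 genes, 15 were below the array median on all 6 arrays.

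Upstream of caspase-4, genes of lipopolysaccharide sensing and of the guanylate-binding and immunity-related GTPases, which expose bacterial lipopolysaccharide in the cytosol, were higher. Of 11 measured, 9 rose and 0 fell (median of the log2 differences 2.94); Ticam1 and Irf2 did not pass. With litter as a paired block 9 also rose, but Ticam1 passed (limma adjusted p = 0.0112) and Tlr4, the receptor of lipopolysaccharide, did not (0.0518, against 0.0374 without the block). Irf1, an interferon-induced transcription factor, read 13165, 10342 and 11586 in ICAM1-positive cells, against 576.6, 424.9 and 501.1 in ICAM1-negative cells (4.55 ± 0.20, limma adjusted p = 0.000139). Irf1 was far above background in both sorts. Cd14, the lipopolysaccharide co-receptor gene, averaged 4502 ± 583 in ICAM1-positive and 448.9 ± 43.7 in ICAM1-negative cells (3.32 ± 0.18). Irgm1, an immunity-related GTPase gene, was at least 9.46-fold higher and the guanylate-binding gene Gbp2 at least 4.70-fold higher, although Gbp2 lost its call without litter 3 (adjusted p = 0.0653). The 14 macrophage markers above rose in the same arrays as these genes.

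Among the cytokines that caspase-1 matures, the pair split. Il1b, the gene of interleukin-1 beta, read 5695.3, 5105.4 and 9414.1 in ICAM1-positive cells, against 323.6, 407.5 and 231.1 in ICAM1-negative cells (4.38 ± 0.33, limma adjusted p = 0.000372). Il18, the gene of interleukin-18, read 199.7, 265.9 and 297.5 in ICAM1-positive cells, against 686.1, 714.8 and 652.2 in ICAM1-negative cells (-1.45 ± 0.21, limma adjusted p = 0.00322). Neither gene's groups overlapped, and Il1b was higher and Il18 lower in all 3 litters. Il18 is named after its values were seen, as is Il18bp, the gene of its binding protein and the other gene of the list that fell (-2.25 ± 0.63, limma adjusted p = 0.0368). All ICAM1-positive values of Il18bp were below the array median, so its level is given as at least 1.49-fold lower in ICAM1-positive cells. The count of falls was 1 without litter 1 or litter 3, and without ICAM1-positive array 1 or ICAM1-negative array 1, 2 or 3.

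Of the 11 measured genes of this cytokine and receptor list, 7 rose and 2 fell (median of the log2 differences 1.83). Il1r1, the signalling receptor of interleukin-1, averaged 517 ± 92.4 in ICAM1-positive and 22.3 ± 9.56 in ICAM1-negative cells, at least 5.32-fold higher. Il1r2, the decoy receptor gene, averaged 634.1 ± 131 in ICAM1-positive and 125.1 ± 9.38 in ICAM1-negative cells (2.32 ± 0.22, limma adjusted p = 0.00066). Il1a, the gene of interleukin-1 alpha, was at least 1.51-fold higher but lost its call without litter 1 (adjusted p = 0.0929) or litter 3 (0.0636), and without ICAM1-positive array 1 (0.051) or 3 (0.0621).

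Of 18 other inflammasome sensors and triggers listed, 12 were measured, of which 7 rose and 1 fell (median 1.55). Nlrp1a, Nlrp1b, Nlrc4, Naip1, Aim2 and Nod2 were not measured. Of the 12, 6 were below the array median on all 6 arrays, and 4 rose when dim values were raised. Nod1, a sensor of bacterial peptidoglycan, averaged 234.1 ± 48.1 in ICAM1-positive and 46.5 ± 4.53 in ICAM1-negative cells, at least 2.39-fold higher (limma adjusted p = 0.00074). Nlrp10 and Nlrp6, genes of the NLRP family, passed upward at intensities near background in both sorts (adjusted p = 0.00303 and 0.0255), so no fold is given. Nlrp6 also lost its call without litter 1 (adjusted p = 0.105) or litter 2 (0.135), and without any single ICAM1-positive array (0.0531 to 0.0751) or ICAM1-negative array 2 (0.073). The gene that fell was Panx1, of a membrane channel that releases ATP, which averaged 451.5 ± 56.3 in ICAM1-positive and 1591 ± 467 in ICAM1-negative cells (-1.78 ± 0.27, limma adjusted p = 0.00417; 0.0545 without litter 1). Without litter 2, 2 genes of the list fell.

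Of 5 measured genes of other gasdermins and membrane rupture, Ninj1 rose and the others did not pass. Over all 16399 genes, 20.6% were higher, and nothing about the list is read from this count. Ninj1, which encodes the protein that ruptures the membrane of dying cells, averaged 2580 ± 262 in ICAM1-positive and 745.5 ± 80.3 in ICAM1-negative cells (1.79 ± 0.18, limma adjusted p = 0.000901). Of its 4 probe sets 3 passed upward and 1 did not pass (-0.40, adjusted p = 0.315). Without litter 2, or without ICAM1-negative array 2, 1 gene of this list fell.

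In the pathway around Casp8, 6 of 10 measured death receptor and necroptosis genes rose and 0 fell (median 1.47). Of the 10, 3 were below the array median on all 6 arrays, and 4 rose when dim values were raised. Ripk1 and Mlkl were listed but not measured. Tnfrsf1a, the main receptor of tumour necrosis factor, averaged 4644 ± 591 in ICAM1-positive and 475.8 ± 89.5 in ICAM1-negative cells (3.30 ± 0.22, limma adjusted p = 0.000271). Cflar, whose product c-FLIP pairs with caspase-8 and restrains it, averaged 1498 ± 357 in ICAM1-positive and 375.7 ± 70.9 in ICAM1-negative cells (1.99 ± 0.25, limma adjusted p = 0.00208). Of the 5 probe sets of Cflar 4 passed upward and 1 did not pass (-2.46, adjusted p = 0.0958). Fadd, the adaptor between receptor and caspase-8, rose by 1.26 ± 0.23 on the log2 scale. Its value was 1.23 without litter 1, where the call was lost (adjusted p = 0.0907), and 0.73 with its 2 probe sets averaged (0.104). Ripk3, the necroptosis kinase gene, passed upward near background in both sorts (adjusted p = 0.0118) and lost its call without litter 3 (0.079).

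Of 18 measured mitochondrial apoptosis genes, 2 rose, 5 fell and 11 did not pass, with a median of -0.49. Over all 16399 genes, 20.6% were higher and 20.8% lower, and nothing about the pathway is read from the count. Pmaip1, the gene of the BH3-only protein Noxa, read at least 9.48-fold higher in ICAM1-positive cells, with means of 944.1 ± 279 in ICAM1-positive and 58.5 ± 1.42 in ICAM1-negative cells. Bid, whose product is cut by caspase-8 and carries its signal to mitochondria, was at least 3.64-fold higher (limma adjusted p = 0.000446). Hrk, a BH3-only gene of neurons, averaged 140.4 ± 34.6 in ICAM1-positive and 1091 ± 384 in ICAM1-negative cells (-2.92 ± 0.34, limma adjusted p = 0.00155). Bok, a relative of Bax, averaged 191.2 ± 3.79 in ICAM1-positive and 1148 ± 106 in ICAM1-negative cells (-2.58 ± 0.16, limma adjusted p = 0.000236).

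The other mitochondrial genes that fell, named after their values were seen, were Apaf1, the scaffold of the apoptosome (-1.23 ± 0.18), Bbc3, the gene of PUMA (-1.12 ± 0.27), and Diablo (-0.66 ± 0.18). Neuron markers fell in the same arrays as these 5 genes, and their part was not tested. The count of 5 was 2 without litter 1 and 3 without litter 3 or without ICAM1-positive array 1, 2 or 3 or ICAM1-negative array 1 or 3, and 8 with litter as a paired block, where Cycs, Bcl2l1 and Dffa also passed. With the block 3 rose, Mcl1 being added. The count that rose was 4 with dim values raised, with 50 added or with an intensity trend, and 5 with probe sets averaged. Of 5 inhibitor of apoptosis genes, Birc3, the gene of cIAP2 and a target of NF-kB, rose by 3.31 ± 0.26 (limma adjusted p = 0.000424), with means of 1013 ± 102 in ICAM1-positive and 105.3 ± 33.6 in ICAM1-negative cells. Xiap, Birc2, Birc6 and Birc7 did not pass.

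**Figure D4:**
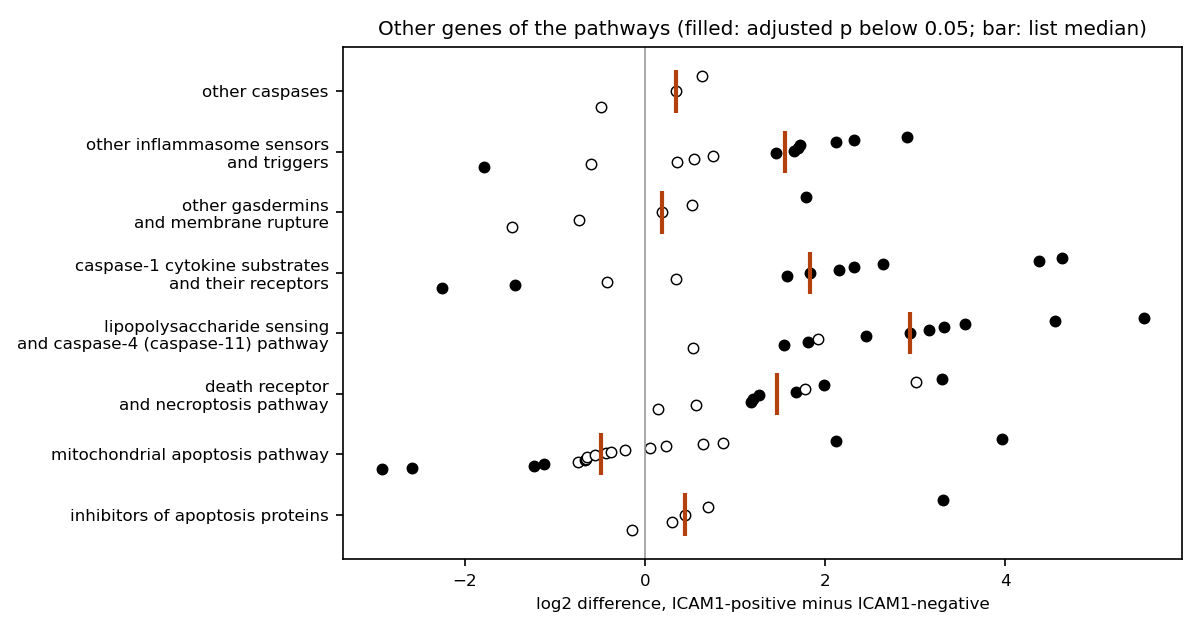
Log2 difference between the sorts (horizontal axis, ICAM1-positive minus ICAM1-negative) for the 75 other genes of the pathways, 1 row per list; filled points passed the limma test and coloured bars are list medians. The median is 2.94 for lipopolysaccharide sensing, 1.47 for death receptor genes and -0.49 for mitochondrial apoptosis genes, which lie on both sides of 0.

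Likeness to Casp1 and Casp8 was measured as the root mean square distance between centred log2 profiles over the 6 arrays, among 12004 other genes above the array median on at least 3 arrays. The genes nearest to Casp1 were Col12a1, a collagen gene (0.34), Arhgef40, an exchange factor gene (0.34), and Piezo2, a mechanically gated channel gene (0.39), against a median distance of 2.26. Those nearest to Casp8 were Gimap9 (0.09), Efr3a (0.09) and Slc30a7, a zinc transporter gene (0.09), against a median of 1.02. On the ICAM1-negative arrays Casp1 and its 3 nearest genes were all below the array medians, and so was Gimap9. These genes thus passed the filter only through their ICAM1-positive arrays. The order of nearness to Casp1 rests largely on intensities near background, that to Casp8 partly for Gimap9, and no relation between the genes is read from it.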

How the data were processed

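Expression was measured on 1 array per sort and litter. The authors deposited linear intensities with 1 decimal. GCRMA is named in the series text and, as a tool, in the submitters' processing notes; the deposited values, however, are not on the log2 scale, and each array had a mean of 500 once 2% of values at either end were removed. The sources used here do not say how that fits with GCRMA. Per the labels, RNA was amplified in 2 rounds.

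Intensities were transformed to log2. After removal of 64 control probe sets, those with intensity above 16 on at least 3 of 6 arrays were kept (38694). Only probe sets with 1 platform symbol were assigned to a gene (34945 before the filter). They gave 16399 measured genes, each represented by its kept probe set with the highest mean. The Entrez IDs of all 8 members matched a RefSeq table. Differences were fitted with limma 3.58.1 in R 4.3.3 without a litter block and adjusted by Benjamini-Hochberg over all kept probe sets, with a threshold of 0.05. The limma step was run on simulated arrays with normal noise and few changed probe sets. Because these data differ in both respects, that run does not give the error rate here.

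The labels give each litter both sorts, so replicate numbers pair the arrays; deviations of same-litter arrays correlated at 0.127, 0.199 and 0.081. P-values rest on the spread between 3 litters, and the number of arrays limits the precision. "At least" folds raise the dimmer sort to the array median where all of its arrays lie below it. Members, lists and these bounds were chosen with earlier results of these data known, and the motif forms after the promoters were seen. The text names all members and other caspases and, per list, up to 4 called genes with the largest differences. Alternatives covered the litter block, filters, low intensities, an added 50, quantile normalization, an intensity trend, averaged probe sets, and arrays or litters left out.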

Additional observations from a re-analysis of the deposited data

How the results depend on the processing

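The gap between inflammatory and apoptotic caspases, 4.36 as described, depended on how low intensities were treated. It was 0.39 when dim values were raised to the array median, 1.41 with 50 added before log2, 4.04 with probe sets averaged, and 5.71 with probe sets above the array median on at least 3 arrays or kept by the main filter, both of which leave out Casp12. The 0.39 counts Casp12, below the median on all 6 arrays, as 0. In alternatives chosen after the data were seen, the gap with dim values raised was 0.78 without Casp12, and it reversed to -0.32 without Casp4 and to -0.26 without both, where Casp1 alone is left; as deposited it was 2.71 without Casp4. Leaving out a litter or an array gave 4.19 to 4.64. With litter as a paired block 34 pathway genes were higher and 11 lower, against 33 and 8 without it, and 6899 and 7476 probe sets, against 6528 and 6984; among the listed genes and markers it changed no call beyond those named above. Leaving out a litter or an array gave 26 to 33 pathway genes higher and 3 to 9 lower, and 3764 to 5854 probe sets higher and 3678 to 6013 lower. Quantile normalization gave 33 and 8 pathway genes. Other than in that gap, genes below the array median on all 6 arrays are given no value with dim values raised. Low signal limits Casp1, Casp12 and the ICAM1-negative side of Casp4, Gsdmd and Pycard. Of the ICAM1-negative arrays of Nlrp3, 2 were also below their medians.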

Other observations

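The 12 measured other sensors and triggers, of which 7 rose, 1 fell and 4 did not pass, included 3 genes tied to NLRP3. These are named here after their values were seen. Nek7, a kinase that binds NLRP3, averaged 8622 ± 1330 in ICAM1-positive and 3159 ± 504 in ICAM1-negative cells (1.45 ± 0.21, limma adjusted p = 0.00353). Txnip, a thioredoxin-binding protein gene, averaged 12108 ± 897 in ICAM1-positive and 3723 ± 390 in ICAM1-negative cells (1.70 ± 0.17, limma adjusted p = 0.000918). P2rx7, the gene of an ATP-gated channel, averaged 134.3 ± 20 in ICAM1-positive and 42.7 ± 6.88 in ICAM1-negative cells (limma adjusted p = 0.002), with its ICAM1-negative arrays below their medians, at least 1.39-fold. Panx1 was the gene of the list that fell.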
